A study of Mus musculus with 2 samples.

Results

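Cirbp and Rbm3, the genes of the mouse cold-inducible RNA-binding proteins, were described together with Rbm3-ps, an annotated processed pseudogene of Rbm3, and Rtn3, a reticulon gene linked to Rbm3 in brain. The 4 genes were chosen by their symbols, out of 55536 annotated genes, and they have 24 of the 141767 annotated transcripts in the transcript tables. They were chosen with their transcript levels, their ratio between the libraries and their difference between the deposited tables already known. All values of these genes are therefore a description, with no test.

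Total RNA was sequenced from hippocampus, labelled as a layer of it, of 2 female B6CASTF1/J mice aged 8 to 10 months from The Jackson Laboratory, F1 animals of a C57BL/6J by CAST/EiJ cross. Biological replicate 2 is animal 5 and biological replicate 1 is animal 1, although the labels give both the same donor identifier. Both libraries began with 300 ng of RNA, carried ERCC spike-in transcripts and were made with a directional kit, and neither animal had a treatment or an engineered allele named in the labels. The libraries form 1 group with no control, the labels used here state neither body temperature nor the hour of sampling, and no p-value was computed.

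Cirbp and Rbm3 are small proteins with an RNA recognition motif and a glycine-rich tail. Mild cooling raises both in mammalian cells, and higher temperature lowers them, in part through splicing: a poison exon in Rbm3 carries an early stop codon and sends the transcript to nonsense-mediated decay when it is included. In cooled mouse brain RBM3 has been linked to the maintenance of synapses, in part through translation of the Rtn3 mRNA, whose product is a membrane protein of the endoplasmic reticulum.

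Expected counts on annotated genes totalled 28356913 in replicate 2 and 34147402 in replicate 1, and 13326 and 13264 of 22015 protein-coding genes reached a level of at least 1 TPM (a length-corrected unit of transcript abundance). Values come from the gene table and its matching first transcript table, both in the layout of RSEM, unless a second transcript table is named, which is in the layout of kallisto and describes the same libraries. All 8 markers of hippocampal principal cells were detected in both libraries, with a median log2 ratio of 0.08 for replicate 2 over replicate 1. Single markers differed more: 4 were higher and 4 lower in replicate 2, from -0.21 for Fibcd1 to 0.57 for Wfs1. Choroid plexus markers differed between the libraries: all 8 were higher in replicate 2, their summed level was 649 TPM in replicate 2 and 30.3 TPM in replicate 1, and none was at 0. Of these, 7 met the 2-fold criterion given below, and Ttr, the most abundant, had 615 TPM in replicate 2 and 21.8 TPM in replicate 1. The other, Folr1, had a log2 ratio of 2.36 from 46 counts in replicate 2 and 9 in replicate 1. Its mean count lay under the minimum of that criterion. The markers of astrocytes, oligodendrocytes, microglia, endothelium, blood, thalamus and neocortex held no gene that met it. Of these, Aif1, Tnnt1 and Nxph4 had mean counts under its minimum and could not meet it. Median log2 ratios were 0.30 for oligodendrocytes and thalamus, 0.28 for neocortex, 0.10 for microglia and 0.08 for astrocytes. For blood and endothelium they were -0.03 and -0.07. Among the oligodendrocyte markers 3 were higher in replicate 2, up to 0.60 for Mog, and 1 was lower. The part of choroid plexus tissue in the ratios of the 4 genes was not tested. In a bulk sample, fewer cells of a type and less RNA per cell cannot be told apart.

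The levels of the coding genes spanned about an order of magnitude, and those of Cirbp and Rbm3 were close to each other. Cirbp (ENSMUSG00000045193.13, mm10 chr10:80165985-80172786, plus strand) had 73.7 TPM in replicate 2 and 36.7 TPM in replicate 1. Rbm3 (ENSMUSG00000031167.16, chrX:8138975-8145880, minus strand) had 82.2 TPM in replicate 2 and 53.9 TPM in replicate 1. Both genes were thus higher in replicate 2.

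The pseudogene showed the widest gap. Rbm3-ps (ENSMUSG00000099875.1, chr1:150265535-150265999, minus strand, a single exon annotated as non-coding) had 15.2 TPM in replicate 2 and 3.50 TPM in replicate 1. Rtn3 (ENSMUSG00000024758.15, chr19:7425901-7483281, minus strand) had 393 TPM in replicate 2 and 388 TPM in replicate 1. The Rtn3 level was nearly equal in the 2 animals, and it ranked 107th in replicate 2 and 111th in replicate 1 among protein-coding genes. By the same ranking Rbm3 stood 1298th in replicate 2 and 2241st in replicate 1, and Cirbp 1511th in replicate 2 and 3495th in replicate 1.

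Over both animals the mean level was 391 ± 3.36 TPM for Rtn3, 68.0 ± 20.01 TPM for Rbm3, 55.2 ± 26.2 TPM for Cirbp and 9.35 ± 8.27 TPM for Rbm3-ps (SD, n = 2). Rtn3 stood above the rest, and Rbm3-ps below, by more than either SD of each neighbouring pair. The gap between Rbm3 and Cirbp was smaller than the SD of each, although Rbm3 was the higher of them in both libraries. With 2 animals an SD is itself imprecise.

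**Figure D1:**
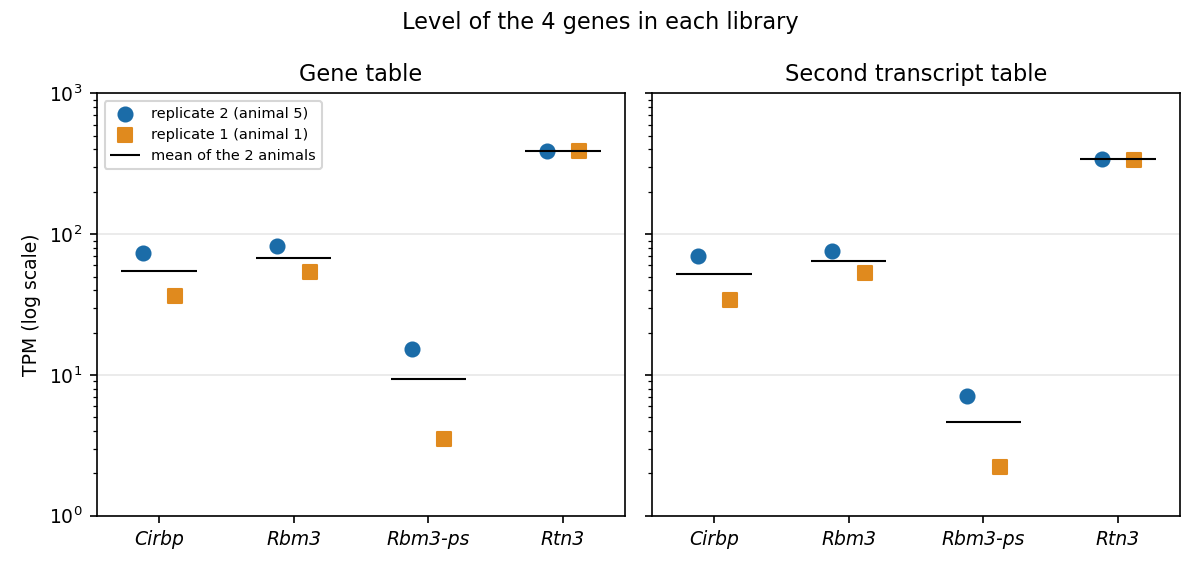
TPM of the 4 genes on a log axis, in the gene table (left) and in the second transcript table (right), with blue circles for replicate 2, orange squares for replicate 1 and a bar at their mean. Cirbp, Rbm3 and Rbm3-ps are higher in replicate 2 in both panels, while the Rtn3 points nearly coincide and Rbm3-ps sits lower in the right panel.

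Ratios between the animals were formed from expected counts after TMM scaling, a library-size correction that assumes most genes do not differ. A gene met the 2-fold criterion where its log2 ratio was at least 1 in size, its mean count at least 50 and its 95% Clopper-Pearson interval, which covers counting error only, did not include equality. Cirbp had 1315 counts in replicate 2 and 716 in replicate 1, a log2 ratio of 1.13 (interval 1.00 to 1.27), or 2.19-fold. Rbm3-ps had 97.7 counts in replicate 2 and 26.9 in replicate 1, a log2 ratio of 2.03 (interval 1.49 to 2.79), or 4.09-fold. Both genes met the criterion, with the lower bound of Cirbp at the threshold itself.

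Rbm3 had 1603 counts in replicate 2 and 1281 in replicate 1, a log2 ratio of 0.58 (interval 0.48 to 0.69), or 1.50-fold, which did not meet it. Rtn3 had 22138 counts in replicate 2 and 25797 in replicate 1, a log2 ratio of 0.04 (interval 0.01 to 0.06). Across all 14434 genes with a mean count of at least 50, 159 (1.1%) met the criterion in either direction, and 85 (0.589%) were higher in replicate 2. Since these ratios helped to choose the genes, nothing is read from 2 of 4 meeting it. A higher ratio than that of Cirbp was seen in 62 of the 14434 genes, than Rbm3 in 400, than Rbm3-ps in 19 and than Rtn3 in 5538.

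The spike-ins gave a different scale. With scaling by ERCC counts, the median log2 ratio of all genes was -0.26, against -0.02 with TMM, so each ratio shifted down by about that much. On that scale Cirbp had a log2 ratio of 0.89 and no longer met the criterion, Rbm3 had 0.34 and Rbm3-ps 1.80. The genes that met the criterion numbered 214, of which 46 were higher in replicate 2. Rtn3 changed sign, at -0.21, and all 4 genes lay above the spike-in median of all genes.

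**Figure D2:**
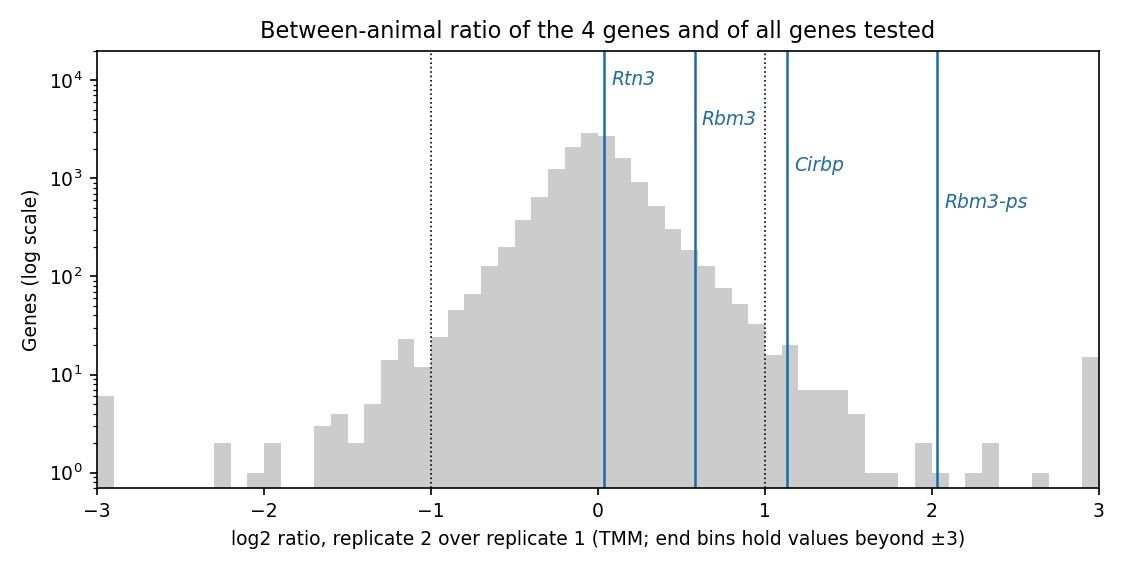
Number of genes (log scale) by log2 ratio of replicate 2 over replicate 1 for the 14434 genes with a mean count of at least 50, with dotted lines at the 2-fold threshold and blue lines at the 4 genes. Rtn3 lies at the centre at 0.04, Rbm3 on the right shoulder at 0.58, and Cirbp at 1.13 and Rbm3-ps at 2.03 beyond the threshold.

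Cirbp has 7 annotated transcripts, and its difference between the animals lay mostly in 1 of them. Cirbp-202, which codes for the full protein of 172 residues, had 47.9 TPM in replicate 2 and 17.0 TPM in replicate 1. The 4 transcripts annotated as retaining an intron summed to 17.3 TPM in replicate 2 and 14.9 TPM in replicate 1. Protein-coding transcripts together were thus 2.80-fold higher in replicate 2, while retained-intron transcripts were 1.16-fold higher. In the second table these values were 2.77-fold and 1.35-fold. The libraries are total RNA, and the part of unspliced precursor RNA in the retained-intron values of Cirbp and Rbm3 was not tested.

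As a share of the TPM of the gene, protein-coding transcripts of Cirbp held 69.9% in replicate 2 and 50.2% in replicate 1. The retained-intron share was 23.5% in replicate 2 and 40.6% in replicate 1. Most of that gap was in Cirbp-204, whose last exon runs on through the intron before the final exon of Cirbp-202, and which held 10.0% in replicate 2 and 21.9% in replicate 1. By the second table the coding shares were 67.2% in replicate 2 and 49.8% in replicate 1. Cirbp-207, a shorter coding transcript with its own upstream first exon, had 3.55 TPM in replicate 2 and 1.37 TPM in replicate 1 in the first table and was listed at 0 in both libraries in the second.

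Cirbp-202 and Cirbp-201, the transcript annotated for decay, splice from their last shared exon to different exons, and both junctions are shown because they give the proteins different ends. Both sequences below begin in the same exon, with the stop codon in capitals, on the plus strand of mm10 in GENCODE M21.
Cirbp-202, chr10:80170745-80170998 across 1 junction: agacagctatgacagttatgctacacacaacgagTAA
Cirbp-201, chr10:80170745-80172418 across 1 junction: agacagctatgacagttatggaTGA
Cirbp-201 codes for 168 residues, of which 167 are identical to Cirbp-202. It had 4.88 TPM in replicate 2 and 3.39 TPM in replicate 1, or 6.62% of the gene in replicate 2 and 9.24% in replicate 1.

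The region before the annotated start of Cirbp-202 holds a short element that has been described as responding to mild cold in the Cirbp promoter, TCCCCGCC. It is printed because it is the cis element for which this gene is known, from the RefSeq promoter table on GRCm38.p6, plus strand, with the element in capitals.
Cirbp promoter, chr10:80167589-80167777: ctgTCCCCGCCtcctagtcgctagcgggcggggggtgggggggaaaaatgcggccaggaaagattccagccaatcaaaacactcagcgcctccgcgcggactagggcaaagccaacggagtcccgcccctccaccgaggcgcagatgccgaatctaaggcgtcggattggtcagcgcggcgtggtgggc
The element lies 247 bases before the RefSeq start site of this window; the table has 2 windows for Cirbp, and the other lacks the element. Read on both strands, it occurs in 1768 of 32851 windows of 300 bases in that table (5.38%), so a match is a description of these letters and not of a working site. Of the other genes, the table has 1 window for Rtn3, without the element.

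Rbm3 has 11 annotated transcripts, and here too the coding ones carried the difference. The 6 protein-coding transcripts summed to 68.1 TPM in replicate 2 and 32.0 TPM in replicate 1. The 2 retained-intron transcripts summed to 12.6 TPM in replicate 2 and 17.7 TPM in replicate 1. Coding transcripts were 2.12-fold higher in replicate 2, while retained-intron transcripts were lower there, at 0.711 of their replicate 1 level. As for Cirbp, the part of unspliced precursor RNA in the retained-intron values was not tested.

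Protein-coding transcripts held 82.8% of the Rbm3 TPM in replicate 2 and 59.5% in replicate 1, and by the second table's values 83.2% in replicate 2 and 61.2% in replicate 1. The retained-intron share was 15.3% in replicate 2 and 32.8% in replicate 1. Rbm3-209, which keeps both introns around the cassette exon, had 10.5 TPM in replicate 2 and 14.0 TPM in replicate 1. Rbm3-211, a transcript of the distal end with no coding sequence, had 0.840 TPM in replicate 2 and 2.62 TPM in replicate 1.

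The 271-base cassette exon of Rbm3 (chrX:8144175-8144445, minus strand) is spliced in only by Rbm3-207 and Rbm3-208 among the 11 transcripts, and both are annotated for decay. Its entry is shown for Rbm3-208, with the codons in frame after the upstream exon and the first stop codon in capitals; the printed bases cover chrX:8144383-8144592 across 1 junction on the minus strand.
Rbm3-208: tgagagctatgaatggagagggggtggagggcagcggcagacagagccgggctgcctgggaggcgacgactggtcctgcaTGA
With this stop, Rbm3-208 codes for 90 residues, against 154 for Rbm3-204.

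Transcripts holding that exon, Rbm3-207, Rbm3-208 and Rbm3-209, summed to 11.2 TPM in replicate 2 and 15.5 TPM in replicate 1. They were 13.6% of the Rbm3 TPM in replicate 2 and 28.9% in replicate 1, and by the second table's values 12.7% in replicate 2 and 27.4% in replicate 1. Most of this was Rbm3-209, in which the exon lies within retained sequence. The spliced-in forms were low: Rbm3-208 had 0.710 TPM in replicate 2 and 1.55 TPM in replicate 1, and by the second table's values 2.15 TPM in replicate 2 and 2.56 TPM in replicate 1. Rbm3-207 was listed at 0 in both libraries and both tables.

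**Figure D3:**
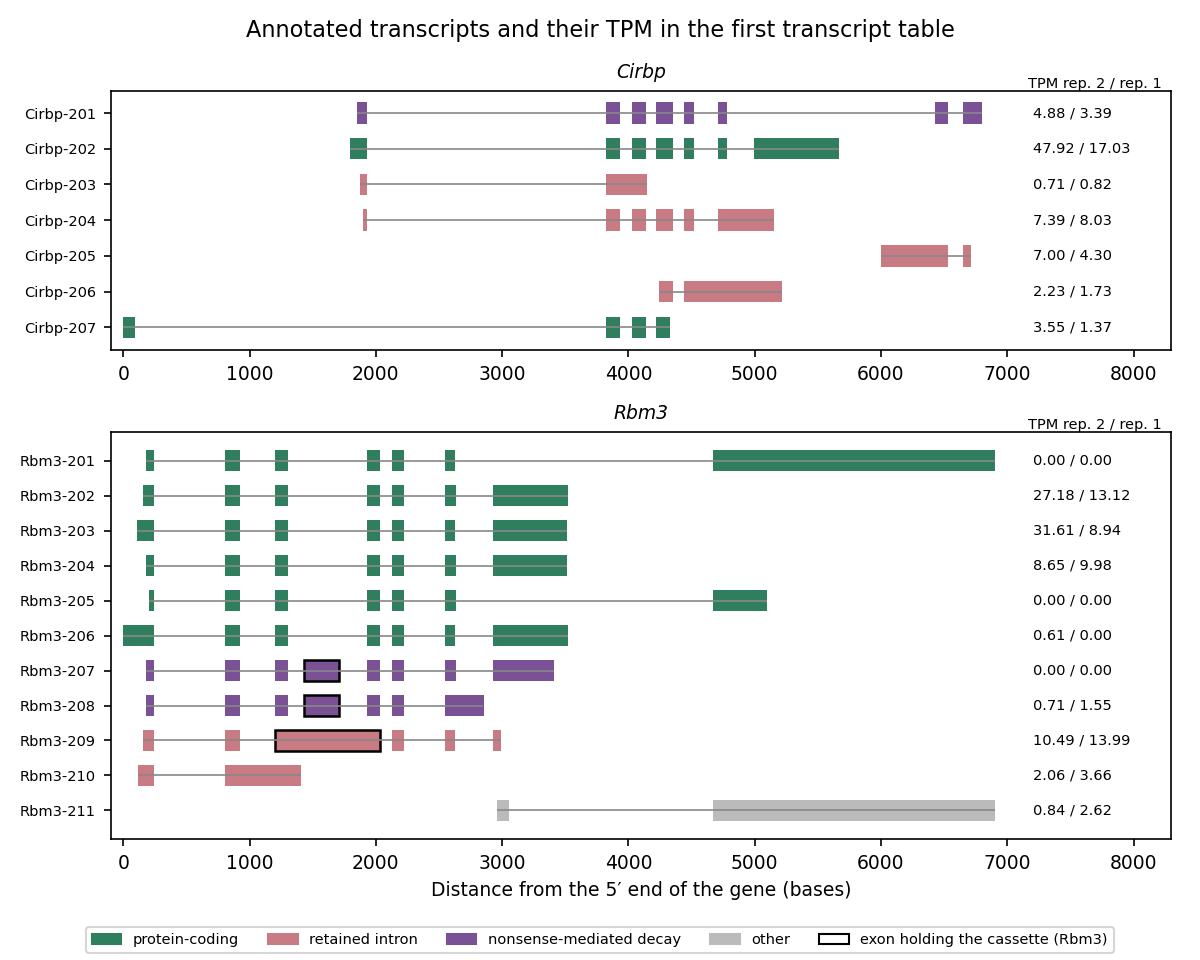
Exons (boxes) of the annotated Cirbp and Rbm3 transcripts by distance in bases from the 5′ end of the gene, coloured by GENCODE class, with TPM values from the first transcript table, replicate 2 then replicate 1, at the right. The outlined boxes hold the Rbm3 cassette exon, which Rbm3-207 and Rbm3-208 splice in and Rbm3-209 contains within retained introns; Cirbp-202 and Rbm3-203 show the widest coding gaps between the animals.

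Set against all genes, the coding share of Cirbp was 19.7 percentage points higher in replicate 2 and that of Rbm3 23.3 points higher. In the second table these differences were 17.4 points and 22.0 points. A coding share at least 10 points higher in replicate 2 in both tables occurred in 498 of 10224 genes that have coding and other transcripts (4.87%), and 600 were lower by as much. The median coding share over those genes was 81.0% in replicate 2 and 81.4% in replicate 1. The comparison was added after the shares of Cirbp and Rbm3 were seen, so their place in it is a description.

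Among the related genes, Rbmx, which codes for a relative with the same kind of motif, had a coding share of 65.0% in replicate 2 and 55.5% in replicate 1. In the second table it was 66.8% in replicate 2 and 56.7% in replicate 1. The difference was 9.50 points in the first table and 10.0 in the second, so it did not reach 10 points in both. Srsf10, a splicing factor that acts in heat-sensitive splicing, had a coding share of 62.1% in replicate 2 and 76.1% in replicate 1. In the second set of values it was 56.8% in replicate 2 and 69.9% in replicate 1. Among the other listed genes the share moved in both directions. For Plcg1 it moved by -9.81 points in the first table and -17.3 in the second. For Hsp90aa1 it moved by 4.65 points in the first table and 4.87 in the second.

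**Figure D4:**
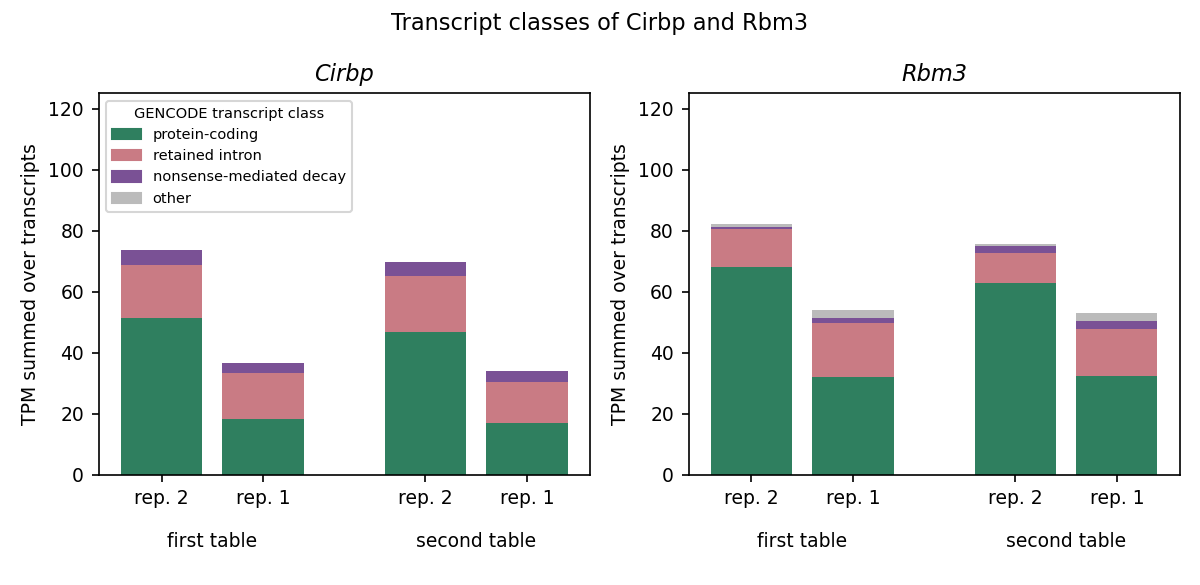
TPM of Cirbp (left) and Rbm3 (right) stacked by GENCODE transcript class, for replicate 2 and replicate 1 in the first and the second transcript table. The coding part is larger in replicate 2 in both tables, while the retained-intron part differs much less for Cirbp and is smaller in replicate 2 for Rbm3.

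Single transcripts were less stable between the tables than these sums. A share moved by at least 10 points between the animals for 4 of 23 transcripts of Cirbp, Rbm3 and Rtn3 in each table, 2 in Cirbp, 2 in Rbm3 and none in Rtn3. Over all 78926 transcripts of detected multi-transcript genes the rate was 13.5% in the first table and 14.4% in the second. Between the tables, 3 of the 23 differed by at least 10 points in both libraries, against 12.5% of all, and all 3 belonged to Rbm3.

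Rbm3-206 was the clearest of these, with 0.610 TPM in replicate 2 and 0 in replicate 1 in the first table but 31.3 TPM in replicate 2 and 13.4 TPM in replicate 1 in the second. Rbm3-202 had 27.2 TPM in replicate 2 and 13.1 TPM in replicate 1 in the first table, against 7.80 TPM in replicate 2 and 1.46 TPM in replicate 1 in the second. Rbm3-203 had 31.6 TPM in replicate 2 and 8.94 TPM in replicate 1 in the first table, and 8.34 TPM in replicate 2 and 2.57 TPM in replicate 1 in the second. These coding transcripts share most of their sequence. Their sum in the second table, 62.9 TPM in replicate 2 and 32.4 TPM in replicate 1, was close to that in the first. The first table also holds a posterior SD for each transcript, a measure of how firmly reads were assigned. For Rbm3-206 it was 34.9 on 13.3 expected counts in replicate 2 and 18.3 on 0 in replicate 1. For Rbm3-203 it was 47.2 on 626 in replicate 2 and 40.2 on 212 in replicate 1.

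Rbm3 coding transcripts differ by an acceptor site annotated at positions 3 bases apart, which adds or removes 1 residue near the tail. The pair is shown because the tables ordered these forms differently; the extra bases are in capitals, and both stretches span chrX:8143310-8143677 on the minus strand across 1 junction.
Rbm3-204, upstream acceptor: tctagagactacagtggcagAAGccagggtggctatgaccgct
Rbm3-202, downstream acceptor: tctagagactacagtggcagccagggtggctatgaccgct
The proteins have 154 and 153 residues in this order and are otherwise identical. In the first table, coding transcripts with the upstream acceptor summed to 40.3 TPM in replicate 2 and 18.9 TPM in replicate 1, and those with the downstream acceptor to 27.8 TPM in replicate 2 and 13.1 TPM in replicate 1. The second table had the opposite order, with 23.5 TPM in replicate 2 and 14.9 TPM in replicate 1 for the upstream acceptor and 39.4 TPM in replicate 2 and 17.4 TPM in replicate 1 for the downstream one. Which acceptor was used more is thus not settled by these tables.

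The Cirbp and Rbm3 proteins are close relatives. Cirbp-202 and Rbm3-204 were identical at 110 of 150 aligned residues (73.3%), and at 65 of the first 90 (72.2%), the stretch that holds the RNA recognition motif. Glycine made up 20.3% of the residues of Cirbp-202 and 20.1% of those of Rbm3-204, and the arginine-glycine-glycine triplet occurred 3 times in Cirbp-202 and 2 times in Rbm3-204. The deposited posterior SD of the Cirbp gene count was 0 in both libraries, so none of its reads were divided with another gene.

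Rbm3-ps is an ungapped copy of the whole Rbm3-204 coding sequence, start to stop codon, identical at 462 of 465 bases (99.4%). Counted from 1 at the first base of the start codon, with the Rbm3 base first and the pseudogene base last, the differences are T198C, T315C and G316A. The first pair leave the codon's residue as it is, and the last turns codon 106 into arginine in place of glycine. The surrounding bases are shown because, within the copied coding sequence of Rbm3-204, only these bases differ between the loci in the mm10 reference. The CAST/EiJ sequence of either locus, which these F1 animals also carry, was not examined. Differing bases are in capitals, and all sequences are on the minus strand.
Rbm3, chrX:8143940-8144605 across 1 junction: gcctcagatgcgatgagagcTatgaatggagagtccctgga
Rbm3-ps, chr1:150265782-150265822: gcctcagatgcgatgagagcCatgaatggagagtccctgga
Rbm3, chrX:8143726-8143863 across 1 junction: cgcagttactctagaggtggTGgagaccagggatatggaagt
Rbm3-ps, chr1:150265664-150265705: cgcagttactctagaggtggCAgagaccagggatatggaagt

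Of the 365 windows of 101 bases in Rbm3-ps, the read length implied by the first tables, 162 (44.4%) also occur in an Rbm3 transcript. Of its 435 windows of 31 bases, 372 (85.5%) do. Both counts were made in the reference sequence only, without CAST/EiJ alleles. The deposited posterior SD, which measures how firmly reads were assigned, was 6.29 counts in replicate 2 and 3.35 in replicate 1 for Rbm3-ps. For Rbm3 it was 12.6 counts in replicate 2 and 10.5 in replicate 1. Assignment was called uncertain where that SD exceeded 2 times the square root of the count, in the library with the larger count, which took in 1.35% of the 14434 genes and none of the 4.

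The tables nevertheless divided these reads differently. After rescaling both tables to protein-coding genes, the Rbm3-ps level in the first table was 2.03-fold that in the second in replicate 2 and 1.49-fold in replicate 1. A difference of at least 2-fold in both libraries was seen in 185 of 14564 genes (1.27%) and in none of the 4. For Rbm3 the same ratio was 1.03 in replicate 2 and 0.961 in replicate 1, for Cirbp 0.997 in replicate 2 and 1.02 in replicate 1, and for Rtn3 1.08 in each.

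In the second table Rbm3-ps had 36.0 estimated counts in replicate 2 and 13.5 in replicate 1, a log2 ratio of 1.47 (interval 0.69 to 2.62). Its mean count there was 25.0, under the minimum of 50, so it did not meet the criterion. Rbm3-ps took 5.75% of the joint counts of Rbm3 and Rbm3-ps in replicate 2 and 2.06% in replicate 1 in the gene table, against 1.99% in replicate 2 and 0.909% in replicate 1 in the second table. The joint counts were 1701 in replicate 2 and 1308 in replicate 1, which is 1.56-fold after scaling, and the second table gave 1.44-fold. The difference of Rbm3 between the animals was thus similar with the pseudogene included, while the level and the ratio of Rbm3-ps itself remain uncertain.

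The antisense gene Rbm3os overlaps Rbm3 by 452 bases and had 5 counts in replicate 2 and 1 in replicate 1. The sources used here do not say whether counting used strand.

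Rtn3 showed a steady level and a steady composition. Rtn3-203, which codes for the short protein of 237 residues, had 277 TPM in replicate 2 and 280 TPM in replicate 1, or 70.5% of the gene in replicate 2 and 72.2% in replicate 1. Transcripts with the whole 2124-base exon (chr19:7456300-7458423), which code for proteins of 964 and 945 residues, summed to 93.2 TPM in replicate 2 and 83.8 TPM in replicate 1. That is 23.7% of the gene in replicate 2 and 21.6% in replicate 1.

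A 57-base exon gives the protein of 256 residues in Rtn3-201, and it is shown beside the junction of Rtn3-203, which lacks it and the long exon; both read from the minus strand.
Rtn3 short exon, chr19:7467811-7467867: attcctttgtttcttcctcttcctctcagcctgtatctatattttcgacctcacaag
Rtn3-203 junction, chr19:7435119-7482958: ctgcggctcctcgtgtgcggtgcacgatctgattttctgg
Transcripts with this exon summed to 116 TPM in replicate 2 and 107 TPM in replicate 1. In the second table the share of Rtn3-203 was 64.4% in replicate 2 and 66.1% in replicate 1. Rtn3-201, which has the short exon alone, held 4.77% in replicate 2 and 5.56% in replicate 1 in the first table, against 10.4% in replicate 2 and 10.9% in replicate 1 in the second. The opposite-strand gene 2700081O15Rik overlaps Rtn3 by only 4 bases.

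The pathway genes around Cirbp and Rbm3 were chosen with earlier results of these data known, and they are given by count beside all 14434 genes, of which 6629 were higher and 7805 lower in replicate 2 with a median log2 ratio of -0.02. The heat shock list holds heat-inducible and constitutive chaperones and the factor Hsf1. All 10 were lower in replicate 2, with a median log2 ratio of -0.48 and a range of -1.62 to -0.12. Hspb1, a small chaperone, had 3.31 TPM in replicate 2 and 10.5 TPM in replicate 1, and Hspa1b, an inducible Hsp70 gene, had 6.47 TPM in replicate 2 and 15.3 TPM in replicate 1. These 2 met the 2-fold criterion, with log2 ratios of -1.62 and -1.24.

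The largest contributor by level, Hspa8, the constitutive Hsp70, had 769 TPM in replicate 2 and 1134 TPM in replicate 1. Hspa1a, the near-identical neighbour of Hspa1b, had 7.03 TPM in replicate 2 and 11.2 TPM in replicate 1, and reads can be divided between this pair. Hsf1, the transcription factor of the heat shock response, differed least, with 32.3 TPM in replicate 2 and 36.3 TPM in replicate 1. Summed over the list, heat shock transcripts were 1584 TPM in replicate 2 and 2145 TPM in replicate 1. Cirbp, Rbm3 and the heat shock list thus lay on opposite sides of the median of all genes in these 2 animals, also with spike-in scaling, where the list had a median of -0.72.

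Genes of temperature-linked splicing had log2 ratios below 0 in 8 of 8 cases, with a median of -0.39, and none met the criterion. For Clk2, at -0.01 (interval -0.15 to 0.13), and Clk4, at -0.08 (interval -0.19 to 0.03), the interval included 0, and the Clk2 level was 26.3 TPM in replicate 2 and 26.2 TPM in replicate 1. Hnrnph1, a regulator of the RBM3 poison exon in human cells, had 102 TPM in replicate 2 and 133 TPM in replicate 1. Clk1, a kinase of splicing factors that is active at lower body temperature, had 54.5 TPM in replicate 2 and 72.5 TPM in replicate 1. Clk4, its close relative, had 58.1 TPM in replicate 2 and 63.5 TPM in replicate 1. The log2 ratio was lowest for Srsf10, at -0.70. All these levels sum coding and other transcripts of a gene. In the first table coding transcripts held 0% of the Clk1 TPM in replicate 2 and 2.85% in replicate 1. For Hnrnph1 they held 29.1% in replicate 2 and 34.2% in replicate 1. For Clk4 they held 40.8% in replicate 2 and 38.6% in replicate 1.

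The remaining lists were near the median of all genes, and none of their members met the criterion. With spike-in scaling, which moved the median of all genes to -0.26, their list medians lay between -0.29 and -0.16, and the counts of higher and lower members given here are those with TMM. Of 4 genes for transport and modification, 2 were lower, with a median of -0.01, and the interval included 0 for all except Tnpo1. Tnpo1, the import receptor of the CIRBP protein, had 27.8 TPM in replicate 2 and 35.2 TPM in replicate 1. Among the glycine-rich relatives, Rbmx had a log2 ratio of 0.13 and Rbmxl1 of -0.19, with a median of -0.03. Of the reticulon genes and their receptor, 5 with Rtn3 itself included, 2 were lower, and the median of 0.04 is the ratio of Rtn3; Rtn1, the most abundant, had 612 TPM in replicate 2 and 647 TPM in replicate 1.

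In the TrkB cascade, which has been linked to Rbm3 induction, 3 of 4 genes were lower, with a median of -0.05. The interval of Plcg1, 1 of these 3, included 0. The higher gene was Bdnf, the ligand, with 21.5 TPM in replicate 2 and 15.6 TPM in replicate 1. Among receptors of the extracellular CIRP protein, Tlr4 had 1.57 TPM in replicate 2 and 1.58 TPM in replicate 1 and a log2 ratio of 0.07, Ly96 had 10 counts in replicate 2 and 5 in replicate 1, and Trem1 had 0 in both.

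Clock genes, which set daily rhythms that Cirbp modulates in mouse cells, split evenly, 5 higher and 5 lower, with a median of 0.01. For Per1, Arntl and Nr1d2 the interval included 0. The highest ratios were those of Dbp, an output factor, with 81.3 TPM in replicate 2 and 48.1 TPM in replicate 1, and of Nr1d1, a repressor of the clock, with 67.6 TPM in replicate 2 and 42.0 TPM in replicate 1. Per2 was lowest, with 10.4 TPM in replicate 2 and 15.6 TPM in replicate 1, followed by Cry1, with 5.24 TPM in replicate 2 and 7.20 TPM in replicate 1. The hour at which each animal was sampled was not tested.

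**Figure D5:**
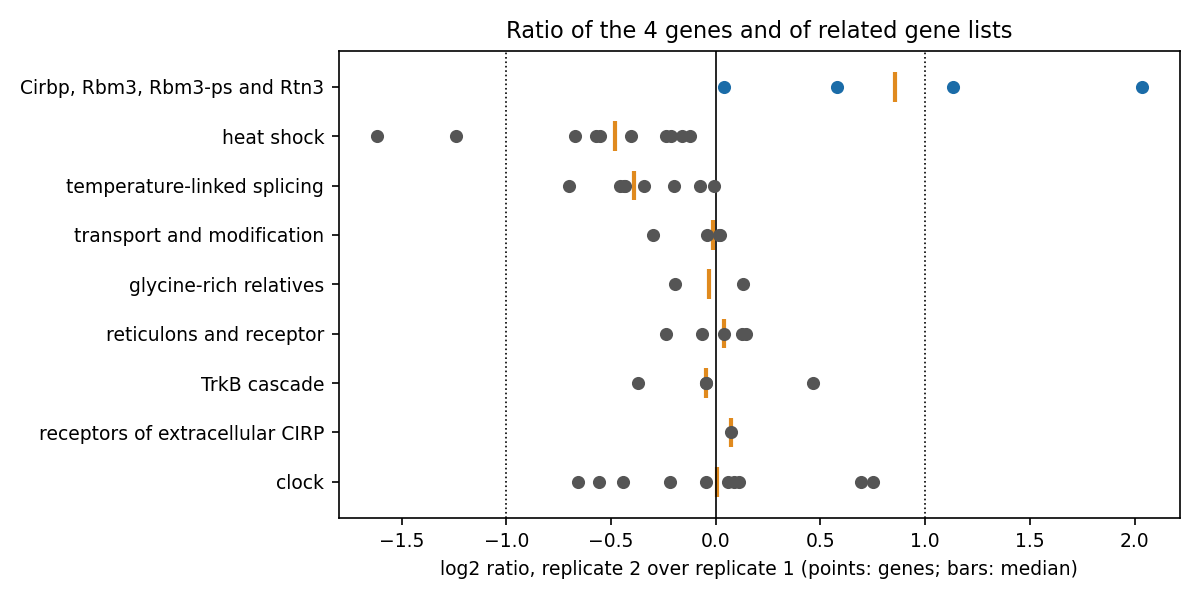
Log2 ratio of replicate 2 over replicate 1 (TMM) for the 4 genes (blue, top) and for the members of the 8 related lists with a mean count of at least 10 (grey), with an orange bar at each median and dotted lines at the 2-fold threshold. All heat shock and temperature-linked splicing genes lie left of 0, with Clk2 at -0.01, the 4 genes lie right of 0 (Rtn3 left of it with spike-in scaling), and the other lists lie on both sides or hold 1 gene.

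The genes most like each member were, among protein-coding genes within a narrow window of its mean TPM, those whose log2 ratio was nearest, over 2 libraries only. For Cirbp, out of 1179 candidates, these were Sgk1 with 83.2 TPM in replicate 2 and 36.6 TPM in replicate 1, Usp2 with 68.3 TPM in replicate 2 and 39.8 TPM in replicate 1, and Dbp as given above. For Rbm3, out of 935 candidates, they were Fam163b, Mag and Ppp1r1a, with log2 ratios of 0.64, 0.48 and 0.69. For Rtn3, out of 92 candidates, they were Clstn1, Scd2 and Ptk2b, with log2 ratios of 0.04, 0.04 and 0.03. The Cirbp matches differed from it by 0.09 to 0.38 on the log2 scale, and all 3 had a lower ratio than Cirbp.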

How the data were processed

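Total RNA of 2 animals was measured. Per the accompanying file notes, the tables use mm10 with GENCODE M21. Expected counts, deposited by the authors without normalisation, fill a gene table and a first transcript table in the RSEM column layout. Estimated counts per transcript were deposited in a second table with the kallisto layout. TPM was deposited in all tables. FPKM, also deposited, entered 1 alternative. The deposited percent of each gene's TPM per transcript was recomputed here from TPM for classes of transcripts. The deposited posterior SD, read as a signal in count units, describes read assignment. The sources used here do not give program versions or the strand setting.

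Only the 55536 annotated genes entered library sizes; ERCC spike-ins were 0.212% of their counts in replicate 2 and 0.178% in replicate 1. Expected counts were rounded, scaled by TMM in edgeR 4.0.16 (R 4.3.3) and turned into log2 ratios with a prior count of 2. Clopper-Pearson 95% intervals cover counting error only, since no molecular identifiers are named. The procedure was tested on simulated data. Ratios were also formed with DESeq2 1.42.0 size factors, spike-in counts and the second table. Sequences came from GENCODE M21 transcripts and the RefSeq promoter table (GRCm38.p6), compared with Biopython 1.88. The 4 genes, the 8 pathway lists and the 9 marker lists were chosen with earlier results of these data known. The genes named are the 4 and their transcripts, members of these lists, and the 3 genes most like Cirbp, Rbm3 and Rtn3 each by level and ratio. The coding share over all genes was added after seeing the data.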

Additional observations from a re-analysis of the deposited data

How the results depend on the processing

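Ratios rest on 2 animals, 1 per library, so they describe these animals, and no paired comparison of groups exists. No paired analysis was possible because the libraries form 1 group. Without replicate 1 or without replicate 2, the mean level became 73.7 or 36.7 TPM for Cirbp, 82.2 or 53.9 for Rbm3, 15.2 or 3.50 for Rbm3-ps and 393 or 388 for Rtn3, the coding share 69.9% or 50.2% for Cirbp and 82.8% or 59.5% for Rbm3, and the Rtn3-203 share 70.5% or 72.2%. TPM rescaled over nuclear protein-coding genes gave mean levels of 111 for Cirbp, 136 for Rbm3, 18.8 for Rbm3-ps and 782 for Rtn3. FPKM gave 34.1 for Cirbp, 42.1 for Rbm3, 5.79 for Rbm3-ps and 241 for Rtn3, a change of unit. The second table gave 340 TPM for Rtn3 and a Rtn3-203 share of 65.2%, and shares from expected counts gave 59.8% for Rtn3-203. Spike-in scaling gave log2 ratios of 0.89 for Cirbp, which ended its call, and -0.21 for Rtn3, which reversed it. The second table gave 1.47 for Rbm3-ps, under its count minimum; without that minimum, a setting chosen after seeing the data, the call held. With no minimum on the count 1253 genes met the 2-fold criterion, against 159, since low counts then enter. The cause of the other changes was not tested. DESeq2 size factors and a prior count of 0.5 changed none of the 4 calls. FPKM aside, the other levels and shares moved under these alternatives by less than the SD over 2 animals. That SD is wide: for Rbm3-ps it takes in 4.64 TPM in the second table, against 9.35. With 2 animals, leaving 1 out always moves a mean by less than the SD, so those alternatives could not have moved further. Of the list counts, 19 were within 1.5 times the main count and 5 moved, each with spike-in scaling, which lowers the ratio of every gene.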
